A study of Drosophila melanogaster with 81 samples.

Results

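The ionotropic receptor (Ir) genes of Drosophila melanogaster were taken as all protein-coding genes of the dm6 genome whose symbol is Ir, a number and a letter. This gave 60 of 13935 protein-coding genes. They fall into 3 coreceptors, 14 receptors known from the antenna, the 7 genes of the Ir7 group and 36 other divergent receptors. The genes have a median length of 1908 bp, against 2161 bp for all genes, and range from 1487 bp to the 104437 bp of Ir41a. There are 4 on chromosome arm 2L, 18 on 2R, 13 on 3L, 14 on 3R and 11 on X. With 2 kb added on each side, 27 of the genes share their window with an Ir neighbour in 9 runs and 33 stand alone, so the 60 genes make 42 separate loci. Peaks between neighbours are counted for each gene they reach.

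Ir proteins descend from ionotropic glutamate receptors, the channels that carry fast signals at synapses, but they serve smell, taste and the sensing of temperature and humidity. A tuning receptor works together with a coreceptor, and these receptors are known from sensory neurons of larvae and adults, which embryos of the stages studied here have not yet formed. H3K27me3 is the mark laid down by Polycomb repressive complexes over silent developmental genes, H3K36me3 lies over transcribed gene bodies, H3K4me3 is found at active promoters and H3K27ac there and at enhancers. The acetylations H2AK9ac and H2BK16ac sit on the tails of histones H2A and H2B.

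The 6 marks were mapped by CUT&Tag, in which an antibody directs a transposase to cut DNA beside the mark. This was done in whole embryos lacking a cluster of histone genes and in wild-type embryos. The first, called HisC here, carried the deficiency Df(2L)HisC on both copies of the chromosome, with P{GAL4-twi.2xPE} on one copy and P{UAS:eYFP}AH2 on the other. They thus lacked the cluster of replication-dependent histone genes and were picked by the eYFP that the mesodermal twi driver switches on. The HisC embryos of the H3K27me3 libraries at 4.5-5 h were labelled Df(2L)HisC alone. The second, w1118, carry neither the deficiency nor these transgenes, so genotype, transgenes, background and selection differ together and cannot be told apart. Eggs were laid for 30 minutes at 25°C, and embryos were aged to 4.5-5 h and 5.5-6 h for all marks, with 3.5-4 h added for H3K4me3. The lists come from pools of whole embryos, in which a mark on fewer cells and less of it per cell cannot be told apart.

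Each of the 26 groups used here had 1 deposited list of peak positions behind 2 or 3 libraries, 59 libraries in all. The lists hold 4588 to 13436 peaks over 5.47 to 13.7 Mb, with no height, score or depth. Values below are bp of the window covered by peaks, or that as a share of the window, and pairs of values are for 4.5-5 h and then 5.5-6 h. Where 0 is given, the list has no peak, which does not show that the mark was missing. With 1 list per group no spread between replicates and no test between genotypes could be had, so every difference below is between lists. For H3K27me3 the HisC lists had 8320 and 8313 peaks over 9.13 and 10.9 Mb, against 4605 and 4588 peaks over 10.9 and 10.9 Mb in w1118, so HisC had more and narrower peaks. As a check of whole embryos, H3K27me3 lay over the mesoderm gene twi (12676 and 15534 bp in HisC, 13150 and 7700 bp in w1118) and the neuroectoderm gene vnd (8957 and 9206 bp in HisC, 13711 and 12538 bp in w1118). Of the other markers looked at, sna, SoxN and pnr also had H3K27me3 peaks in all 4 lists, as did the odorant coreceptor gene Orco, while the neuronal gene elav had none.

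H3K27me3 was the mark with the most Ir genes that had a peak in 1 genotype alone at both times. A peak lay in the window in both HisC lists and in neither w1118 list at 27 of the 60 genes (45.0%), against 18.0% of all protein-coding genes and 16.9% of those of 1 to 5 kb, the size of 57 Ir genes. The reverse, a peak in both w1118 lists and neither HisC list, was found at 0 Ir genes and at 1.54% of all genes. The 27 genes were 6 of 7 of the Ir7 group, 6 of 14 antennal receptors, 15 of 36 other divergent receptors and 0 of 3 coreceptors. Another 10 genes had a peak in all 4 lists, 5 in 1 HisC list only, 17 in no list, and Ir68a in the earlier w1118 list only. Because HisC lists of this mark hold more peaks, lists cut to equal numbers of their widest peaks were compared as well, and there 17 of 60 Ir genes had a peak in HisC alone, against 9.52% of all genes. With overlapping windows merged, 17 of 42 loci met the rule.

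Mean coverage was on the same side. The Ir windows were covered to 14.7% and 18.0% on average in HisC and to 6.51% and 5.79% in w1118, while all genes stood at 6.69% and 7.76% in HisC and 5.17% and 5.01% in w1118. The median Ir gene had 13.0% and 12.7% of its window covered in HisC and 0% in w1118 at both times. Coverage was at least 10 percentage points higher in HisC at both times at 23 Ir genes, against 10.5% of all genes, and at least 10 points higher in w1118 at 1, Ir10a, against 5.15% of all genes. Within gene bodies, 13 and 14 Ir genes were covered over at least 50% of their length in HisC (21.7% and 23.3%) and 4 and 4 in w1118 (6.67% at both times). Of all genes, 6.7% and 8.04% were so covered in HisC and 5.51% and 5.19% in w1118.

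**Figure D1:**
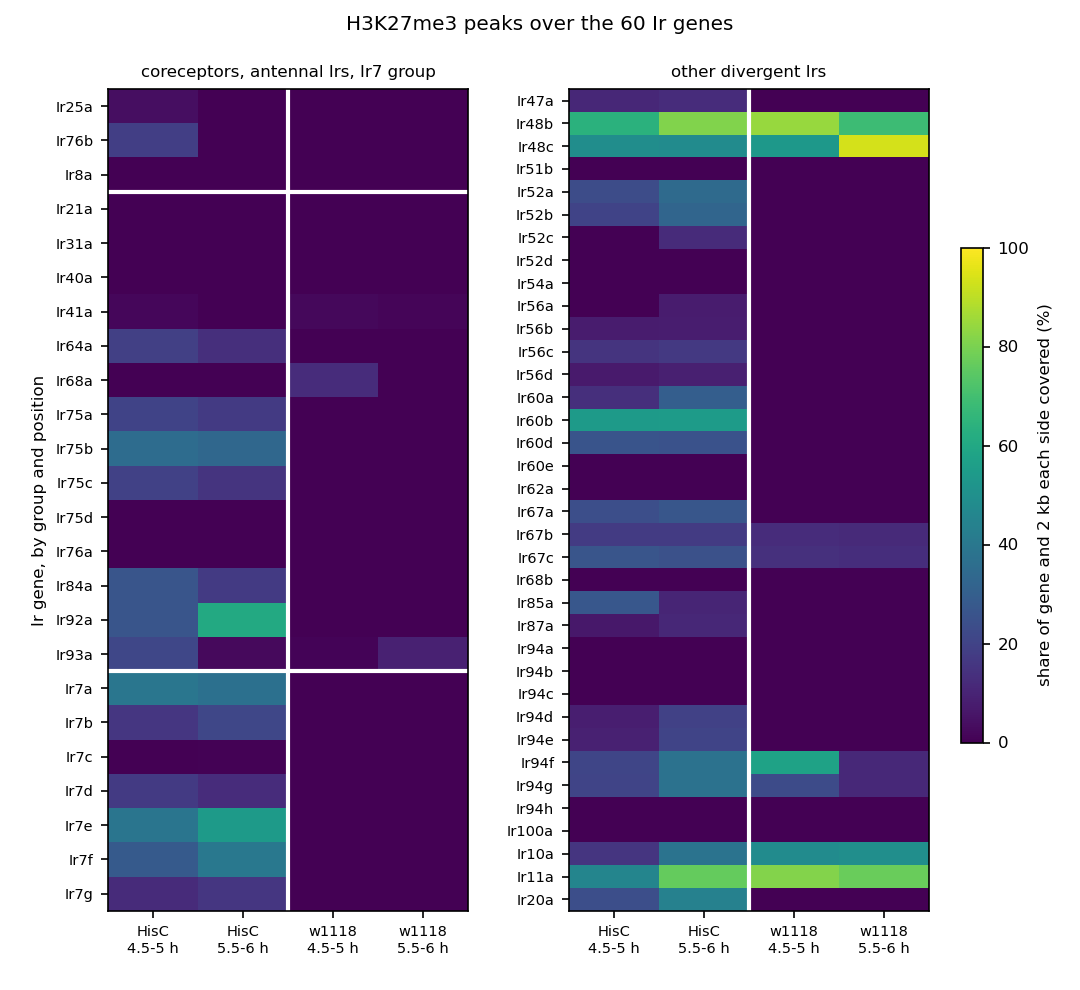
Share of each Ir gene and 2 kb on each side covered by H3K27me3 peaks (colour, %), with 1 row per gene and 1 column per peak list, HisC left of w1118. White lines separate the genotypes and the receptor groups. In HisC 39 and 40 genes have a peak (65.0% and 66.7%, against 40.6% and 38.9% of all genes). In w1118 11 and 10 have one (18.3% and 16.7%), near the 17.5% and 16.5% of all genes. The brightest rows in w1118 are Ir48b, Ir48c, Ir94f, Ir10a and Ir11a.

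Of the 3 coreceptors, 2 had an H3K27me3 peak in the earlier HisC list (66.7%, against 40.6% of all genes), and none had one in the later HisC list or in w1118. Ir8a (chrX:9232726-9236585), the partner of acid-sensing receptors, had no H3K27me3 peak in any list. Ir25a (chr2L:4830846-4835300), the most widely used partner in smell, taste, temperature and humidity sensing, had 322 and 0 bp in HisC and none in w1118. Ir76b (chr3L:20108484-20111534), a partner in smell and in the taste of salt and amino acids, had 1307 and 0 bp in HisC and none in w1118.

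Of the antennal receptors, 6 had H3K27me3 in HisC alone. Ir92a (chr3R:20338973-20343902), needed for the response to ammonia and amines, had 2360 and 5435 bp in HisC and 0 bp in both w1118 lists, and its gene body was covered to 36.8% and 69.7% in HisC. Ir84a (chr3R:7406869-7409384), the receptor for food-derived aromatic odours that promote male courtship, had 1714 and 1108 bp in HisC and none in w1118. Ir64a, which senses acids, had 1523 and 1095 bp in HisC and none in w1118. The remaining members of this set are the neighbours Ir75a, Ir75b and Ir75c (chr3L:17815570-17822834), which detect small acids. There, HisC had 3 separate peaks of 569, 717 and 924 bp at 4.5-5 h and of 578, 512 and 966 bp at 5.5-6 h, and Ir75b in the middle, whose window reached all 3, had 2157 and 2056 bp. Both w1118 lists were empty over these genes, and the nearest w1118 peak was 66.3 kb from Ir75a.

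Values at genes of temperature and humidity sensing varied. The cool receptor gene Ir21a and the dry-air receptor gene Ir40a had no H3K27me3 peak in any list, and the moist-air receptor gene Ir68a had 926 bp in w1118 at 4.5-5 h and nothing elsewhere. Ir93a (chr3R:20851709-20859945), which temperature and humidity sensing both need, had 2596 and 314 bp in HisC against 122 and 1121 bp in w1118, higher in HisC at the earlier time and lower at the later. Of its own body, 13.2% was covered in HisC at 4.5-5 h and 0% in each other list, where the bp lie beyond the gene. The amine receptor gene Ir76a, Ir31a and Ir75d had none. Ir41a, a polyamine receptor gene, was lower in HisC, at 1863 and 287 bp against 2435 and 1634 bp in w1118.

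The Ir7 group, receptors of taste neurons on the X chromosome, had the largest share of genes with a peak in their window in HisC alone. No w1118 list had an H3K27me3 peak within 2 kb of any of its 7 genes. Ir7a (chrX:7764982-7766826), which takes part in the taste of acetic acid, had 2303 and 2165 bp in HisC, and its body was covered to 92.4% and 84.8%. Its single peak ran from 7764383 to 7766685 in the earlier HisC list and from 7764382 to 7766546 in the later one, so both lists placed it over the gene. Ir7e had 2289 and 3199 bp and Ir7f 1717 and 2449 bp in HisC. Ir7b had 957 and 1277 bp, Ir7d 1005 and 750 bp, and Ir7g 778 and 1005 bp. Of their own bodies, 0% and 1.6% were covered at Ir7d and 0% at both times at Ir7g. The bp of Ir7g are part of the peaks over Ir7f, and those of Ir7d lie almost wholly beyond that gene. Ir7c, needed for the response to high salt, is the exception, with 0 and 41 bp, where the 41 bp are the edge of a peak that begins beyond the gene.

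Between Ir7b and Ir7g, a stretch of 22.0 kb, HisC had 4 H3K27me3 peaks at each time and w1118 had none. The widest of them, of 4004 and 3979 bp, lies not in an Ir gene but in dec, the eggshell gene between Ir7b and Ir7c. Some of the bp counted for Ir7b therefore belong to that peak. The other 3 peaks were 250, 1005 and 1284 bp wide at 4.5-5 h and 679, 750 and 2449 bp wide at 5.5-6 h, and lay at the end of Ir7b, around the gap between Ir7d and Ir7e, and over Ir7f. The same stretch held H2BK16ac peaks in both genotypes, 3 and 4 in HisC against 3 and 2 in w1118. The w1118 lists thus lacked H3K27me3 there, but not all marks.

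**Figure D2:**
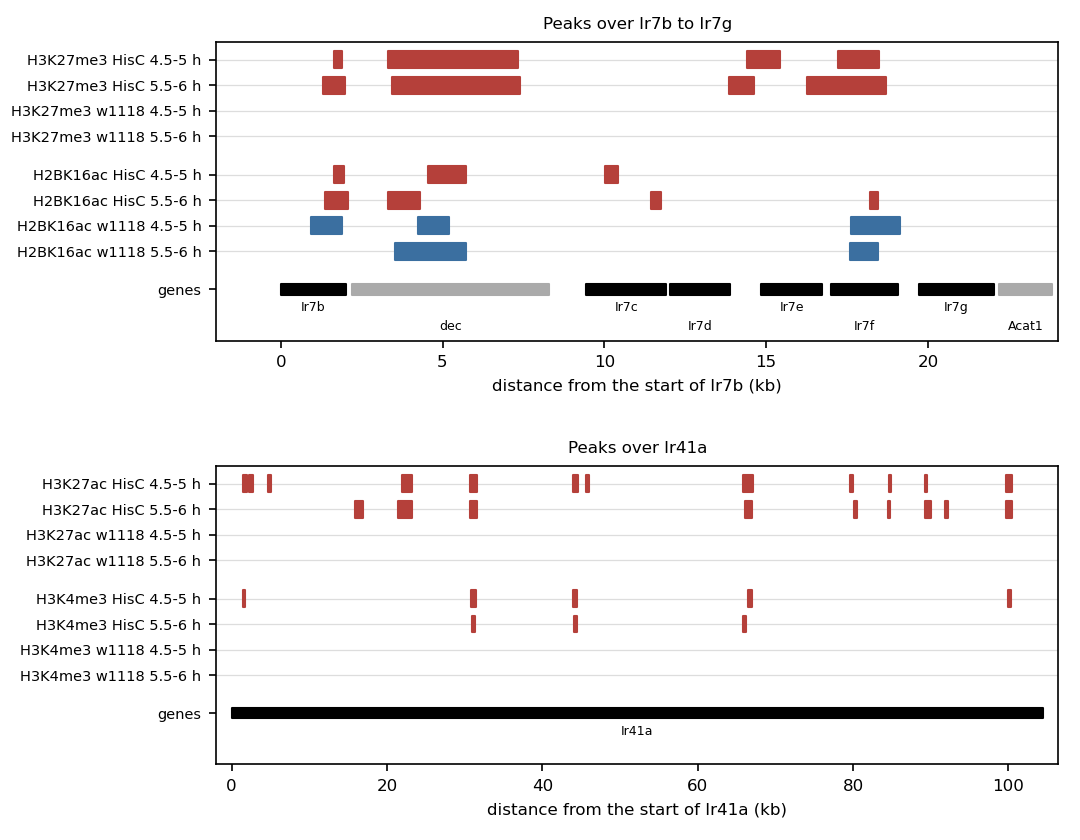
Peaks of HisC (red) and w1118 (blue) by distance in kb from the start of Ir7b (upper map, H3K27me3 and H2BK16ac) and of Ir41a (lower map, H3K27ac and H3K4me3), with 1 line per list and genes as bars below (black for Ir genes, grey for others). The 4 lines of H3K27me3 in the upper map show 4 peaks in each HisC list and none in w1118, and the lower map shows 12 and 9 peaks of H3K27ac in HisC and none in w1118.

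Among the other divergent receptors the values spread from full coverage to none. Ir60b (chr2R:24515685-24517458), which acts in pharyngeal neurons that limit sugar intake, had the largest difference of all Ir genes by the smaller of its 2 times. A single HisC peak of 3136 bp at 4.5-5 h and of 3164 bp at 5.5-6 h covered 94.8% and 99.0% of the gene, and w1118 had none. The nearest w1118 peak was 131 kb away. Its neighbour Ir60d had 1490 and 1444 bp of the same peak in its window in HisC and 0% of its own body covered, so it adds no second peak.

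Other genes of this group had peaks of their own over the gene. Ir67a (chr3L:9542245-9543999) had 1384 and 1540 bp in HisC and none in w1118, whose nearest peak was 237 kb away, the farthest among the 27 genes. Its HisC peaks covered 78.9% and 84.8% of the gene. Ir20a (chrX:21477254-21478945), a taste receptor gene near the centromere, had 1370 and 2507 bp in HisC and none in w1118, with 81.0% and 92.0% of the body covered in HisC. Ir85a had 1717 and 660 bp in HisC, and Ir47a 768 and 886 bp, with 0 in w1118 for both.

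Runs of neighbours were marked in part. Of the run Ir52a to Ir52d (chr2R:15499632-15508366), which includes receptors of taste neurons that males use in courtship, Ir52a had 1351 and 1998 bp and Ir52b 1166 and 1884 bp in HisC. Ir52c had 0 and 713 bp, Ir52d had none, and w1118 had none at any of the 4. At Ir56b to Ir56d (chr2R:19508167-19513571), where Ir56b is needed for the taste of salt and Ir56d for that of fatty acids, HisC had 420 and 431 bp, 848 and 947 bp, and 428 and 516 bp. The Ir56 values are among the lowest of the 27 genes, and the window of Ir56c, which lies between, takes in the peaks of both neighbours while 0% of its own body was covered. At the run Ir94a to Ir94c no list had a peak. Ir94d and Ir94e shared 544 and 1213 bp in HisC, with none in w1118.

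Fewer Ir genes were covered in w1118 than in HisC, 18.3% and 16.7% of them, near the 17.5% and 16.5% of all genes. At 4.5-5 h there were 11, and HisC was lower at 8 of them and higher at 3, while at 5.5-6 h there were 10, and HisC was lower at 5 and higher at 5. Choosing genes by a peak in w1118 favours lower values in HisC, so these counts are a description. Ir10a (chrX:11308533-11311208) was covered over 100% of its body in both w1118 lists, by peaks of 3227 and 3309 bp, and over 39.0% and 93.3% in HisC. In HisC the earlier list had 2 short peaks of 535 and 508 bp there and the later one a single peak of 2551 bp. Ir11a (chrX:12375596-12377755) had 2807 and 4699 bp in HisC and 5015 and 4753 bp in w1118, so at 5.5-6 h the lists were 54 bp apart. Ir48b had 3714 and 4714 bp in HisC against 4910 and 3984 bp in w1118, and Ir48c 2784 and 2743 bp against 3035 and 5328 bp. Ir94f had 1188 and 2149 bp in HisC against 3281 and 652 bp in w1118. The direction at Ir48b and Ir94f was not the same at the 2 times, and only Ir10a, Ir41a, Ir48c and Ir11a were lower in HisC at both. Ir67b and Ir67c, also covered in w1118, were higher in HisC at both times, Ir67c with 1503 and 1420 bp against 792 and 738 bp.

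Most Ir genes with H3K27me3 in HisC alone did not lie close to a w1118 peak of this mark. Distances were taken from the gene and not from the HisC peak, and the rule itself leaves no w1118 peak within 2 kb. The 27 genes were 2.76 to 237 kb from the nearest w1118 H3K27me3 peak of either time, with a median of 68.8 kb, and 4 of the 27 (Ir60a, Ir87a, Ir94d and Ir94e) were within 20 kb. The 2511 genes of the genome with H3K27me3 in HisC alone had a median distance of 31.6 kb, and 943 of them were within 20 kb. The 17 Ir genes without H3K27me3 in any list had a median of 35.5 kb, with 7 within 20 kb. These distances are a description, since neighbouring Ir genes share them. Peaks over Ir windows in HisC had median widths of 1063 and 966 bp (39 and 37 peaks), against 778.5 and 924 bp for all HisC peaks. In w1118 the widths were 2127 and 3008 bp (13 and 10 peaks), against 1634 and 1571.5 bp for all w1118 peaks.

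In the related receptor families the picture depended on the measure. H3K27me3 in HisC alone was found at 17 of 59 odorant receptor (Or) genes (28.8%), 17 of 60 gustatory receptor (Gr) genes (28.3%) and 4 of 13 ionotropic glutamate receptor genes (30.8%), with 0 genes in w1118 alone in each family, so each family stood above the 18.0% of all genes and below the 45.0% of Ir genes. Coverage at least 10 points higher in HisC at both times was found at 15 Or genes (25.4%), 6 Gr genes (10%) and 6 glutamate receptor genes (46.2%), against 38.3% of Ir genes and 10.5% of all genes. By that count the glutamate receptor genes stood above the Ir genes and the Gr genes near the share of all genes. Mean coverage of Or genes was 13.8% and 18.2% in HisC against 8.80% and 7.52% in w1118, and of Gr genes 7.16% and 12.6% against 4.62% and 3.86%. The glutamate receptor genes, from which the Ir genes descend, stood at 17.3% and 12.6% in HisC against 2.31% and 3.79% in w1118. Or coverage was thus near that of Ir genes in HisC, and whether the families differ was not tested.

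**Figure D3:**
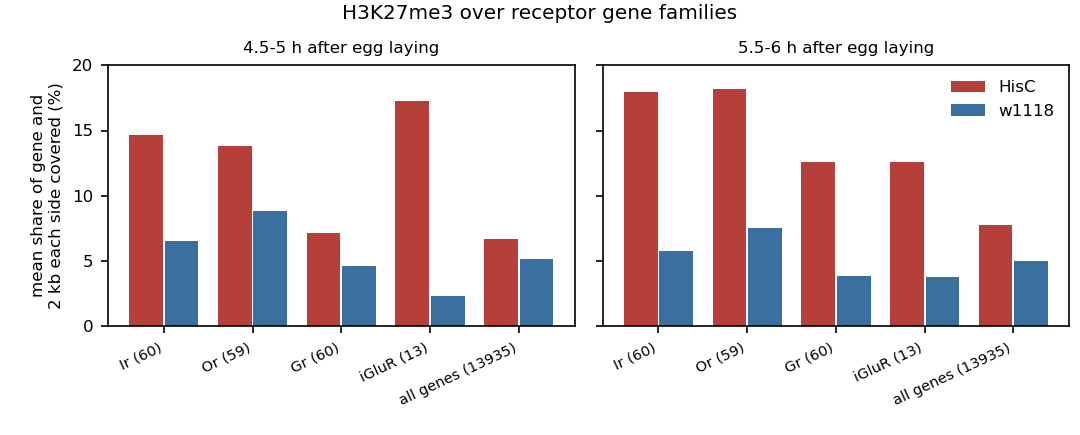
Mean share (%) of the gene and 2 kb on each side covered by H3K27me3 peaks in HisC (red) and w1118 (blue) at each time, for Ir, Or, Gr and ionotropic glutamate receptor (iGluR) genes and for all protein-coding genes, with the number of genes in brackets. Bars are means over genes of 1 list, without error bars. HisC is the higher in each family at both times.

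Marks of active promoters and enhancers were less common at Ir genes than at all genes in both genotypes. H3K4me3 peaks lay in the windows of 13, 16 and 12 Ir genes in HisC at 3.5-4 h, 4.5-5 h and 5.5-6 h and of 12, 11 and 11 in w1118, that is 20% to 26.7% in HisC and 18.3% to 20% in w1118, while 57.2% to 65.3% of all genes had one. Most of these peaks in the later lists touch another gene, which can be another Ir gene and does not keep the peak from touching the Ir gene as well. In HisC these were 17 of 25 and 15 of 20 peaks, and in w1118 all 15 at each time. The 3.5-4 h lists were not counted in this way. In the later lists a peak reached the Ir gene itself at 4 and 6 genes in HisC and at 1 and 0 genes in w1118. The share of all genes so reached in each list was not counted. The HisC lists of this mark held more peaks, 8613 and 8991 against 5336 and 5728 in w1118. H3K4me3 in HisC alone was found at 2 genes, Ir41a and Ir62a, or 3.33%, against 5.14% of all genes, and in w1118 alone at 0, against 0.639%. Neither share stands above that of all genes. Over gene bodies alone the counts were 3 in HisC alone (against 4.52% of all genes) and 0 in w1118 alone (against 1.57%).

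H3K27ac was alike. Peaks lay in 15 and 14 Ir windows in HisC (25% and 23.3%) and in 15 and 14 in w1118, while 59.8% and 60.4% of all genes had one in HisC and 63.9% and 63.3% in w1118. In HisC alone there were 4 genes (Ir40a, Ir41a, Ir51b and Ir75d), or 6.67%, against 3.61% of all genes, and in w1118 alone 2 genes (Ir48c and Ir85a), or 3.33%, against 5.23%. At Ir60b, where H3K27me3 was in HisC alone, H3K27ac covered 550 and 741 bp in HisC against 1902 and 1991 bp in w1118. Each of these peaks touched another gene, which was not Ir60d, whose window held no H3K27ac peak. The other gene in the Ir60b window is Letm1. In w1118 the peak also reached Ir60b itself, over 8.29% and 8.85% of its body, against 0% in HisC. At Ir85a, H3K27ac was at 0 bp in both HisC lists and at 1310 and 474 bp in w1118, while H3K27me3 was at 1717 and 660 bp in HisC and at 0 in w1118.

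The largest differences in H3K27ac were at Ir41a and Ir40a, which are also the longest Ir genes. Ir41a (chr2R:4917519-5021955) held 12 and 9 H3K27ac peaks in HisC, 7644 and 7232 bp in all, and none in w1118. It held 5 and 3 H3K4me3 peaks in HisC (2455 and 1037 bp) and 7 and 5 H3K36me3 peaks (6695 and 3509 bp), again with none in w1118, and at 3.5-4 h neither genotype had H3K4me3 there. No other protein-coding gene overlaps the Ir41a window, so these peaks are counted for no neighbour. H2AK9ac and H2BK16ac covered Ir41a in both genotypes, with 20195 and 21287 bp of H2AK9ac in HisC against 8320 and 15551 bp in w1118, and 22703 and 17766 bp of H2BK16ac in HisC against 7873 and 18228 bp in w1118. The peaks in HisC are short, at most 1775 bp for H3K27ac, and cover few of the 104437 bp.

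Ir40a (chr2L:22189526-22214376), within 3 Mb of the centromere end of its arm as the gene table shows it, had 3834 and 3740 bp of H3K27ac in its window in HisC and none in w1118. H3K4me3 covered 2664, 498 and 0 bp there in HisC at the 3 times, and 0 bp in w1118 at each. H3K36me3 covered 1794 and 0 bp in HisC and none in w1118. Here the difference in H3K27ac was the same at both times, while H3K4me3 and H3K36me3 were called in the earlier HisC lists only.

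In H3K4me3 the largest difference by the smaller of the 2 later times was at Ir93a, whose window holds other genes. It had 2259, 2382 and 2703 bp of H3K4me3 in HisC at the 3 times against 1059, 1025 and 1083 bp in w1118, and the peak reached the gene itself in HisC but not in w1118 at the 2 later times. The ribosomal protein gene RpS30 and the glutamate receptor gene KaiR1D lie in that window. Ir41a was next by that measure. At Ir62a, which takes part in the taste of calcium, H3K4me3 was at 0, 446 and 288 bp in HisC and at 0 in all w1118 lists. The coreceptor genes had H3K4me3 in their windows in both genotypes, Ir25a with 2486, 2377 and 3521 bp in HisC against 2457, 2149 and 1889 bp in w1118, and Ir8a with 864, 1096 and 1397 bp in HisC against 1127, 949 and 1049 bp in w1118. All these peaks at Ir8a touch its neighbours at the later times, and Ir76b had none in any list.

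H3K36me3, the mark of transcribed bodies, covered 6.53% and 6.16% of Ir windows on average in HisC and 6.95% and 7.71% in w1118, against 17.9% and 16.8% of the windows of all genes in HisC and 21.0% and 25.3% in w1118. Only Ir41a had it in HisC alone (1.67%, against 4.1% of all genes), and no Ir gene had it in w1118 alone (against 1.77%). Ir51b had 1443 and 804 bp in HisC against 4390 and 3091 bp in w1118, the largest difference with less in HisC. Ir8a had 2688 and 3627 bp in HisC against 1837 and 1872 bp in w1118, and Ir25a 3061 and 2159 bp against 3291 and 3589 bp. Windows hold neighbours here too, and without strand or transcripts the mark could not be given to 1 gene of a window.

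**Figure D4:**
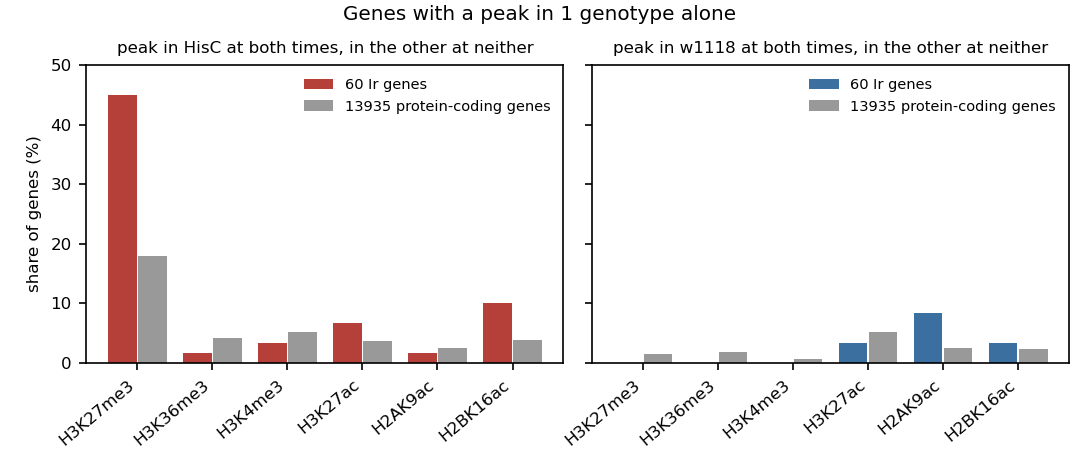
Share (%) of the 60 Ir genes (coloured) and of all 13935 protein-coding genes (grey) with a peak in HisC at both later times and in w1118 at neither (left), or in w1118 at both and in HisC at neither (right), for each mark. For H3K27me3 the Ir share in HisC alone is 45.0% against 18.0% of all genes, and the bars of the other 5 marks reach at most 10%.

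The H2A and H2B acetylations lay over most Ir windows, as over most windows of all genes. H2AK9ac was present at 38 and 38 Ir genes in HisC (63.3% at both times) and at 46 and 42 in w1118 (76.7% and 70.0%), while 72.3% and 73.8% of all genes had it in HisC and 69.9% and 75.5% in w1118. H2BK16ac was present at 48 and 39 Ir genes in HisC (80.0% and 65.0%) and at 44 and 42 in w1118 (73.3% and 70.0%), while 75.6% and 73.6% of all genes had it in HisC and 63.4% and 76.0% in w1118. H2AK9ac covered less of the Ir windows in HisC at both times, 8.76% and 7.72% against 14.0% and 10.1% in w1118. All genes stood at 10.8% and 12.1% in HisC and 11.5% and 12.1% in w1118. HisC minus w1118 was -5.28 and -2.37 points for Ir genes and -0.561 and -3.72 for Or genes. It was 3.6 and -3.64 for Gr genes and -3.27 and -3.17 for glutamate receptor genes. Among Ir genes it was -8.72 and -5.02 for the other divergent receptors and -1.22 and 0.18 for antennal receptors. It was -1.15 and -0.411 for the Ir7 group and 7.51 and 13.1 for coreceptors. H2AK9ac was in HisC alone at 1 gene, Ir31a (1.67%, against 2.45% of all genes), and in w1118 alone at 5, or 8.33% against 2.41% of all genes. Those 5 are Ir48c, the neighbours Ir52c and Ir52d and the neighbours Ir67b and Ir67c, which lie in 3 separate loci. With overlapping windows merged, 2 of these loci met the rule, because the run of Ir52c and Ir52d includes Ir52a and Ir52b, which had 1407 and 1096 bp of H2AK9ac in HisC at 4.5-5 h. At Ir60b, H2AK9ac was at 295 and 398 bp in HisC against 2988 and 1111 bp in w1118, and at Ir75b at 1419 and 750 bp against 2510 and 1826 bp.

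H2BK16ac went opposite ways at the 2 times. At 4.5-5 h it covered 14.1% of the Ir windows in HisC and 11.1% in w1118, and at 5.5-6 h 7.40% in HisC and 12.3% in w1118. Within HisC, 41 of 60 Ir genes had less at the later time and 11 more, while of all 13935 genes 6840 had less and 4860 more. Over all genes HisC stood at 13.0% and 10.9% and w1118 at 9.65% and 11.8%, so the same turn was seen there and was smaller. HisC minus w1118 was 2.985 and -4.91 points for Ir genes and 4.14 and -4.89 for glutamate receptor genes. It was 6.89 and -0.991 for Or genes and -1.665 and -4.74 for Gr genes. In HisC alone there were 6 genes (Ir25a, Ir31a, Ir94c, Ir94e, Ir7c and Ir7d), or 10%, against 3.81% of all genes, and in w1118 alone 2 (Ir67a and Ir85a), or 3.33% against 2.29%. With peaks of at least 500 bp alone the order of these counts turned, to 2 genes in HisC alone (against 4.94% of all genes) and 6 in w1118 alone (against 3.17%). With equal numbers of the widest peaks they were 3 (against 4.36% of all genes) and 6 (against 3.34%). Ir25a had 2096 and 783 bp in HisC and none in w1118. Ir56c, in a run where H3K27me3 was in HisC alone, had 1526 and 823 bp of H2BK16ac in HisC against 2781 and 2721 bp in w1118, and Ir68a 872 and 603 bp against 2032 and 2324 bp.

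**Figure D5:**
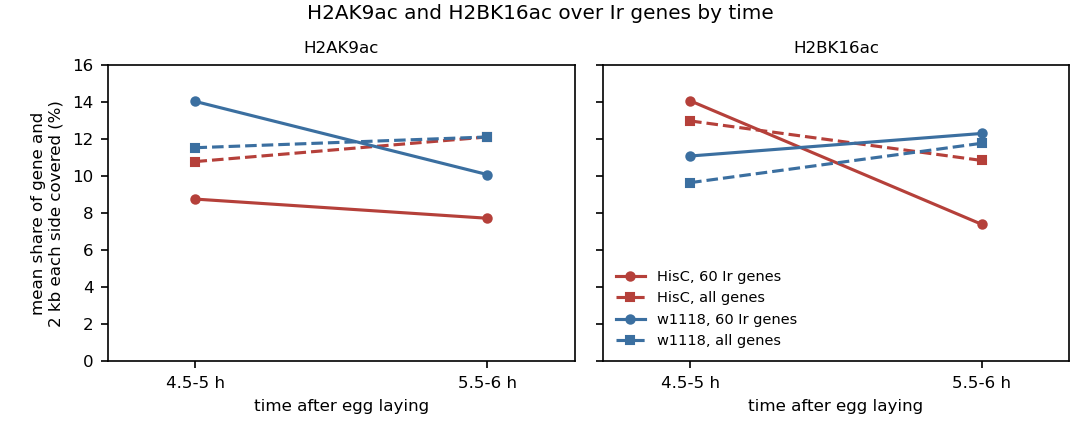
Mean share (%) of the gene and 2 kb on each side covered by H2AK9ac (left) and H2BK16ac (right) peaks at each time, in HisC (red) and w1118 (blue), for the 60 Ir genes (solid lines, circles) and all protein-coding genes (dashed lines, squares). Points are means over genes of 1 list. H2AK9ac over Ir genes is lower in HisC at both times, and H2BK16ac is higher in HisC at 4.5-5 h (14.1% against 11.1%) and lower at 5.5-6 h (7.40% against 12.3%).

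H3K27me3 and the H2B acetylation were called over the same bases in part. Of the H3K27me3 bp in the Ir windows of HisC, 47.2% at 4.5-5 h and 19.7% at 5.5-6 h also lay in an H2BK16ac peak, against 20.7% and 25.0% in w1118. For H2AK9ac the shares were 26.6% and 11.5% in HisC against 36.3% and 24.7% in w1118. Overlap with H3K27ac was 4.2% and 0% in HisC and 9.59% and 1.44% in w1118, and overlap with H3K4me3 5.20% and 0.181% in HisC and 0% in w1118. Overlap with H3K36me3 was 8.76% and 1.73% in HisC and 1.255% and 0% in w1118. Bases in overlapping windows were counted for each gene. These shares were not computed over all genes, so they cannot be called a trait of Ir genes. H2BK16ac itself covered 14.1% and 7.40% of the Ir windows in HisC and 11.1% and 12.3% in w1118. In whole embryos, marks on the same cells and on different cells cannot be told apart.

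Between the lists of the later and earlier times, H3K27me3 in HisC was more extended at 5.5-6 h than at 4.5-5 h at 26 Ir genes. It was less extended at 15 and equal at 19, a mean of 3.3 percentage points more, against 1.07 points over all genes. Of all genes, 3648 had more at the later time in HisC, 2871 less and 7416 the same. The HisC libraries of this mark at 4.5-5 h, unlike those at 5.5-6 h, were labelled with the deficiency alone. Age and label thus changed together in HisC, and their parts in this difference cannot be told apart. In w1118 H3K27me3 was more extended at 3 Ir genes, less at 8 and equal at 49, a mean difference of -0.722 points. Of all genes, 1232 had more at the later time in w1118, 1393 less and 11310 the same, a mean difference of -0.166 points. At 5.5-6 h the most covered bp in HisC were at Ir92a (5435 bp), Ir48b (4714 bp) and Ir11a (4699 bp). H3K36me3 in HisC was lower later at 13 Ir genes and higher at 8, and in w1118 higher at 13 and lower at 3. Over all genes the counts leaned the same ways, with 5535 genes lower later and 4465 higher in HisC, and 6878 higher and 2215 lower in w1118.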

How the data were processed

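Peak lists of the 6 histone marks were used as the authors deposited them, with chromosome, start and end in bp on dm6. Narrow peaks were deposited for H3K4me3 and H3K27ac and broad peaks for the other marks, per the names of the lists. Per the submitters' processing notes, the tools were Bowtie2 2.3.4.2, deepTools 3.3.1, SAMtools 1.9, Trim Galore 0.6.6 and cutadapt 1.17. Not given in the sources used here are the peak caller, its threshold, the way 2 or 3 libraries became 1 list, depth, and the treatment of reads that match several receptor genes. The H3K4me3 list of HisC at 3.5-4 h is named as having something excluded, and what was excluded is unknown. Deeper sequencing can by itself give more and wider peaks.

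Genes came from a RefSeq table of release 6 of the genome, without strand or transcripts, so promoters, exons and introns were not separated. Covered bp were computed for each gene with 2 kb on each side in Python 3.11.15 with numpy 2.4.6 and pandas 2.3.3, by a computation tested on simulated windows. A gene was called when at least 1 bp of peak lay in its window in 1 genotype at both later times and in the other at neither, or, for H3K27me3, when coverage differed by at least 10 percentage points in the same direction at both. Named genes were the coreceptors, up to 12 genes in each direction for H3K27me3 and up to 5 for each other mark, in order of the lesser difference of the 2 later times, and runs of at least 3 neighbours. Further genes, described to fill out their receptor groups, were chosen after their values were seen. The members and gene lists were chosen with earlier results of these data known. The 22 libraries of 10 further groups were not analysed here, and sequences were not used here.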

Additional observations from a re-analysis of the deposited data

Results flagged for a closer look

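At some genes the difference between HisC and w1118 was at least 500 bp in opposite directions at the 2 later times, and these are given here with the difference at 5.5-6 h minus that at 4.5-5 h. Each difference is HisC minus w1118 in covered bp, each rests on 1 list per group, and the difference between the times was not tested. For H3K27me3 the values were 1926 bp at Ir48b, 3590 bp at Ir94f and -3281 bp at Ir93a. At Ir93a 0% of the gene body was covered in w1118 and in the later HisC list, so the bp there lie beyond the gene. For this mark the genotype label of the HisC libraries also differed between the times. At Ir94f the H3K27me3 coverage was 1188 and 2149 bp in HisC against 3281 and 652 bp in w1118. For H3K27ac, Ir68a alone met the condition, with -1361 bp.

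For H2AK9ac the values were 3729 bp at Ir40a, 1645 bp at Ir62a, 2270 bp at Ir100a, 1867 bp at Ir7b and -1142 bp at Ir7e. Of these 5 genes, 4 had less H2AK9ac in HisC than in w1118 at 4.5-5 h and more at 5.5-6 h.

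H2BK16ac gave most of the list. The values were -3527 bp at Ir40a, -2695 bp at Ir60b, -1835 bp at Ir60d, -1646 bp at Ir62a, -1760 bp at Ir68b, -1976 bp at Ir75a and -2361 bp at Ir84a, all higher in HisC at the earlier time and lower at the later. Those at Ir60b and Ir60d are neighbours with shared windows. The opposite turn was seen at Ir60e with 1377 bp, at Ir94f and Ir94g with 2260 bp each, on the same peaks, and at Ir7b with 1571 bp. Over all genes, too, H2BK16ac coverage was higher in HisC at 4.5-5 h (13.0% against 9.65% in w1118) and lower at 5.5-6 h (10.9% against 11.8%), so the 7 genes named first turned the same way as the mean of all genes and the other 4 the opposite way.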

How the results depend on the processing

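Of the alternatives tried, 120 values kept their side and size, 61 moved and 6 changed sign. The H3K27me3 count in HisC alone (27) was 20 to 30 under 7 alternatives, against 12% to 26% of all genes. It was 17 with equal numbers of the widest peaks (9.52% of all genes) and 17 with merged loci. The count in w1118 alone (0) was 1 at 4.5-5 h, against 2.94% of all genes. The count at least 10 points higher in HisC (23) was 11 at 20 points (4.09% of all genes) and 14 as merged loci. That in w1118 (1) was 0 at 20 points (3.01% of all genes) and over gene bodies (4.16%). The mean H3K27me3 difference (8.17 and 12.2 points) was 16.1 and 19.0 over gene bodies.

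For the other marks the counts are small and moved often. Over gene bodies, HisC alone was 4 for H3K36me3 (5.17%) and 3 for H2BK16ac (4.33%). With 5 kb each side, HisC alone was 4 for H3K36me3 (4.06%), 2 for H2AK9ac (1.18%) and 2 for H2BK16ac (1.52%). There, w1118 alone was 2 for H3K36me3 (1.07%) and 3 for H2AK9ac (1.13%). With peaks of at least 500 bp, HisC alone was 0 for H3K4me3 (2.95%) and 2 for H2BK16ac (4.94%), and w1118 alone was 1 for H3K27ac (6.72%) and 6 for H2BK16ac (3.17%). With equal numbers of peaks, HisC alone was 0 for H3K4me3 (2.02%) and 3 for H2BK16ac (4.36%). There, w1118 alone was 1 for H3K36me3 (3.57%), 1 for H3K4me3 (2.77%), 1 for H3K27ac (5.79%) and 6 for H2BK16ac (3.34%). As merged loci, for which there is no share of all genes, H2BK16ac in HisC alone was 3 and H2AK9ac in w1118 alone 2. Single times were chosen after seeing the data. At 4.5-5 h they gave in HisC alone 5 for H3K36me3 (7.97%), 6 for H3K4me3 (10.4%), 5 for H2AK9ac (13.1%) and 12 for H2BK16ac (19.9%). In w1118 alone they gave 1 for H3K36me3 (4.21%), 1 for H3K4me3 (2.3%), 6 for H3K27ac (11.9%), 13 for H2AK9ac (10.7%) and 8 for H2BK16ac (7.73%). At 5.5-6 h they gave in HisC alone 3 for H3K36me3 (7.83%), 7 for H2AK9ac (10.8%) and 11 for H2BK16ac (10.8%). In w1118 alone at that time they gave 3 for H3K36me3 (5.15%), 2 for H3K4me3 (1.49%) and 5 for H3K27ac (10%). There, H2AK9ac stood at 11 (12.5%) and H2BK16ac at 14 (13.3%).

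Mean differences (HisC minus w1118, in points) changed sign for H3K36me3 over gene bodies, at 1.39 and 1.54 instead of -0.418 and -1.55. They changed sign for H3K4me3 at 3.5-4 h, at 0.585 over gene bodies and 0.0686 with 5 kb instead of -0.47. H3K27ac at 5.5-6 h changed sign, at -0.304 with 5 kb and -0.0482 without genes within 3 Mb of a centromere instead of 0.169. The cause was not tested. Without a change of sign, H3K36me3 at 4.5-5 h was -1.44 with 5 kb, -0.93 with peaks of at least 500 bp and -1.29 with equal numbers, and at 5.5-6 h -3.13 with 5 kb. H3K4me3 at 3.5-4 h was -1.09 with either of the last 2, at 4.5-5 h 1.44 over gene bodies and 0.318 with equal numbers, and at 5.5-6 h 1.64 with 5 kb and 0.393 with equal numbers. H3K27ac was -0.319 with 5 kb at 4.5-5 h and 1.04 over gene bodies at 5.5-6 h. H2AK9ac was -8.65 and -5.88 over gene bodies and -2.56 with 5 kb at 4.5-5 h, and H2BK16ac was -3.02 with 5 kb at 5.5-6 h.

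No paired analysis was possible because each group has 1 pooled list, and for the same reason leaving out a replicate was not run. Without depth or height, too few reads and a missing mark cannot be told apart. Windows of neighbouring genes share peaks, so gene counts overstate the number of separate places.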

Other observations

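H3K27me3 in HisC alone also lay over dec, a gene between Ir7b and Ir7c that is not a receptor, and over some glutamate receptor genes. The widest peak between Ir7b and Ir7g, of 4004 bp at 4.5-5 h and 3979 bp at 5.5-6 h, lies within dec, which encodes proteins of the eggshell. Among the ionotropic glutamate receptor genes, GluRIA had 2191 and 2039 bp in HisC and GluRIB 3231 and 2505 bp, with none in w1118 for both, and the NMDA receptor gene Nmdar2 had 4746 and 4928 bp in HisC and none in w1118. GluRIIC, a subunit gene of the muscle receptor, had 4088 and 2813 bp in HisC against 310 and 427 bp in w1118. KaiR1D, a kainate-type receptor gene in the window of Ir93a, had 2748 and 1043 bp in HisC against 1866 and 2707 bp in w1118. It was thus higher in HisC at the earlier time and lower at the later. Peaks beyond Ir93a that were counted in the Ir93a window were counted here too. The same turn at Ir93a is therefore not a separate observation.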
